A study of Mus musculus with 2 samples.

Results

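Glul-high hepatocytes were taken from a single-cell RNA sequencing library of mouse liver as the barcodes of low depth with at least 3 UMIs (unique molecular identifiers, counts of distinct captured transcripts) of Glul, making up at least 0.1% of their gene UMIs. A barcode first had to hold at least 500 genes, 1000 to just under 10000 gene UMIs and mitochondrial UMIs under 20%. The hepatocyte genes Alb, Apoa1, Apoa2, Ttr and Fgb had to sum to at least 1% of UMIs, the antigen presentation genes H2-Aa, H2-Ab1, H2-Eb1 and Cd74 to under 0.5%, and the endothelial genes Clec4g, Ptprb and Kdr to at most 1 UMI. Of 13151 barcodes, 5851 met these gates and 385 of them were Glul-high, a share of 6.58% of the low-depth hepatocytes (exact binomial 95% interval 5.96 to 7.25). They were compared with the 4842 barcodes of the same gates that held no Glul UMI, called Glul-0 below, while the other 624 had Glul below the limits.

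Glul encodes glutamine synthetase, which joins ammonia to glutamate. In the liver lobule blood flows from the portal tract to the central vein, and hepatocytes along this path divide their work: those near the portal tract run the urea cycle and gluconeogenesis, and those around the central vein make glutamine, express many cytochrome P450 enzymes and respond to Wnt ligands from the central vein endothelium. Glul and Oat, the ornithine aminotransferase that feeds glutamate to glutamine synthetase, are known markers of the hepatocytes next to that vein.

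The study addressed how the dose of an oncogenic RAS gene shapes oncogene-induced senescence in hepatocytes. All 3 animals were female C57BL/6 (labelled BL6) mice that received, at 6 to 8 weeks of age, a transposon by hydrodynamic tail vein injection, which reaches a subset of hepatocytes. NRAS G12V with mVenus was given to 2 mice, and NRAS G12V/D38A with mVenus, a double mutant that cannot signal to its effectors, to 1 control mouse. Both constructs carried the strong CAGGS promoter. On day 6 the livers were dissociated, the cells of each mouse were stained with a hashtag antibody, sorted for mVenus and pooled, so no mouse without the injection was measured. The gene library and the hashtag library shared 13141 barcodes, and the pooled gene library held 142080194 UMIs with a median of 3908 per barcode.

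The hashtags are shown because each result over mice rests on reading them:
Hashtag 1: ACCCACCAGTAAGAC
Hashtag 2: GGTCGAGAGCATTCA
Hashtag 3: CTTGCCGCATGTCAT
All 15-base tags are in capitals because the whole tag was matched. The deposited table gives hashtag 1 to the G12V/D38A mouse and hashtags 2 and 3 to G12V mice, whereas by the methods of the study hashtags 1 and 2 were the G12V mice and hashtag 3 the G12V/D38A mouse. The mice are therefore named by hashtag, and no comparison of G12V with G12V/D38A was made.

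Few Glul-high barcodes carried a readable hashtag. Their median hashtag UMIs were 13, 3 and 3 for hashtags 1, 2 and 3, against 12, 3 and 3 in Glul-0 barcodes. A single hashtag was called in 51 of the 385, in 15, 19 and 17 for hashtags 1, 2 and 3, while 329 had no call, 4 were called as doublets and 1 was not in the hashtag library. The same held for Glul-0 barcodes, of which 474 had a single call and 4338 had none. In the barcodes that failed the hepatocyte gate at the same depth, 1098 of 1228 had a single call. Among called members the median UMIs of their own hashtag were 332, 27 and 56 for hashtags 1, 2 and 3. Called members differed from the others in composition: mitochondrial UMIs reached 1% in 24 of the 51, against 20 of the 329 without a call.

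Glul-high barcodes made up similar shares of the low-depth hepatocytes of each mouse. The share was 8.29% for hashtag 1 (15 of 181, exact binomial 95% interval 4.71 to 13.3), 8.88% for hashtag 2 (19 of 214, 5.43 to 13.5) and 8.21% for hashtag 3 (17 of 207, 4.86 to 12.8). Among barcodes without a call it was 6.31% (329 of 5210, 5.67 to 7.01). The 3 intervals overlapped. Which barcodes were assigned to which mouse depended on the hashtag rule, as given at the end. All intervals given here and below cover counting error only.

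The share of Glul-high hepatocytes was lower at 20000 UMIs or more than at low depth. At the lowest depths 3 Glul UMIs are more than 0.1% of the UMIs, so the rule is stricter there. Its part in the shares was not tested. The share was 5.45% of hepatocytes with 1000 to 2000 UMIs (111 of 2035), 7.53% with 2000 to 5000 (207 of 2748) and 6.27% with 5000 to 10000 (67 of 1068), each window without its upper end. Above the depth gate it was 3.91% with 10000 to 20000 UMIs (16 of 409), and 1 of 1745 hepatocytes with 20000 UMIs or more was Glul-high, a share of 0.0573% (0.00145 to 0.319). The deep hepatocytes also had another make-up of RNA, with median mitochondrial UMIs of 8.73% at 20000 UMIs or more against 0.241% at 2000 to 5000. Within hepatocytes of mitochondrial UMIs under 1% the share was 5.86%, 7.93% and 6.43% in the 3 low windows and 6.25% at 10000 to 20000 UMIs (11 of 176, 3.16 to 10.9), where the interval covered the shares at low depth. At 20000 UMIs or more only 14 hepatocytes had mitochondrial UMIs under 1%, and none of them was Glul-high, which allows a share of up to 23.2% (exact binomial upper limit).

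**Figure D1:**
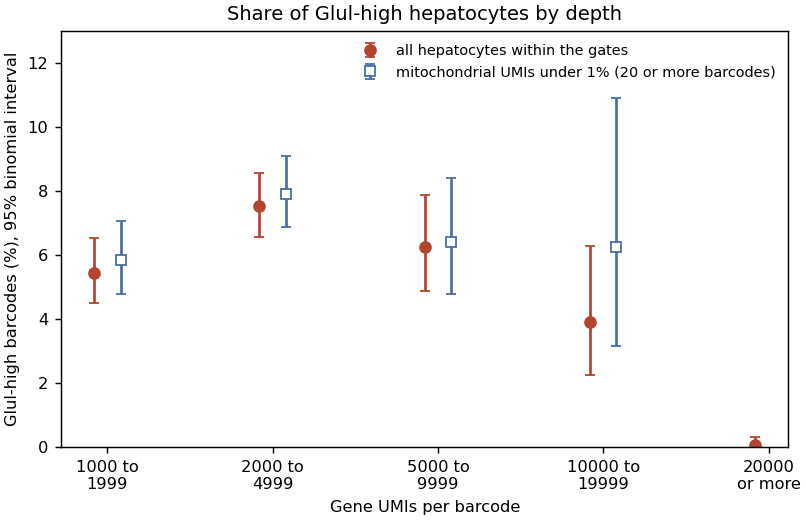
Share of Glul-high barcodes (vertical axis, %) among hepatocytes within the gates by gene UMIs per barcode (horizontal axis), for all hepatocytes and for those with mitochondrial UMIs under 1% in windows of 20 or more such hepatocytes; bars are exact binomial 95% intervals. The share of all hepatocytes lay between 5.45% and 7.53% below 10000 UMIs and was 0.0573% at 20000 or more.

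Glul-high and Glul-0 barcodes had similar depths and mitochondrial shares over all barcodes, while Malat1 was lower in Glul-high barcodes. The median was 2927 UMIs in Glul-high and 2506 in Glul-0 barcodes, and the median mitochondrial share was 0.266% and 0.310%. Mitochondrial UMIs were under 1% in 336 of the 385 (87.3%) and in 3961 Glul-0 barcodes (81.8%). Summed over barcodes, the nuclear RNA Malat1 stood at 291 CPM in Glul-high and 810 CPM in Glul-0 barcodes, against 12016 CPM in the deep hepatocytes and 24848 CPM in the barcodes below the hepatocyte gate. CPM here are UMIs per 1000000 gene UMIs, with Glul and the rows Nras and mVenus, which collect transgene reads, left out of the total. Both low-depth classes were thus far from the deep hepatocytes in these 2 measures, and what part this plays in the results below was not tested. The hepatocyte genes of the gate, set at 1%, made up 1.84% of UMIs at the median in Glul-high barcodes. Their median share was 2.37% in Glul-0 barcodes and 6.63% in deep hepatocytes. In the called barcodes that the test over mice used, Glul-high and Glul-0 barcodes differed more, with medians of 4201 and 2937 UMIs and mitochondrial shares of 0.619% and 1.26%. There Malat1 was lower in Glul-high barcodes (log2 fold change -1.87, SE 0.44, edgeR adjusted p = 0.0421), and without the mouse of hashtag 1 its value was -1.14 and did not pass.

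Glul itself, which chose the members, is a description. A Glul-high barcode held a median of 11 Glul UMIs and at most 72, which was 0.408% of its UMIs at the median, from 0.103% to 2.19%. The summed level was 4354 CPM (Poisson 95% interval 4240 to 4469), and it was 3775, 4131 and 3447 CPM in the called barcodes of hashtags 1, 2 and 3. Just inside the limits, the 25 members with exactly 3 Glul UMIs (median depth 1650 UMIs) had 1678 CPM of Oat and 153 CPM of Arg1, the arginase of the urea cycle. Just outside, the 100 barcodes with 2 Glul UMIs (3753 UMIs) had 702 CPM of Oat and 507 CPM of Arg1, and the 47 with 3 or more Glul UMIs that made up under 0.1% (6005 UMIs) had 823 and 599 CPM. These groups differ in depth and so in the share of Glul. In the barcodes below the hepatocyte gate the Glul level was 157 CPM.

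**Figure D2:**
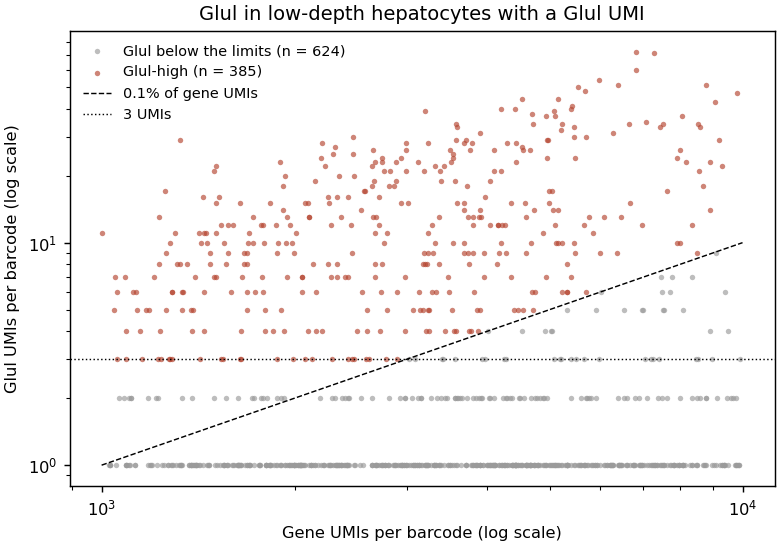
Glul UMIs (vertical axis, log scale) against gene UMIs (horizontal axis, log scale) of each low-depth hepatocyte with a Glul UMI. The 385 Glul-high barcodes lie above both the dotted line at 3 UMIs and the dashed line at 0.1% of gene UMIs, and the 624 grey barcodes lie below at least one of them.

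The label of pericentral cells came with 3 other markers, Oat, Gstm3 and Rgn. They were chosen with earlier results of these data known, so their levels describe the class and are no independent check of the label. Gstm3 is a glutathione S-transferase of the mu class, and Rgn (regucalcin) is a calcium-binding gluconolactonase. After each barcode was thinned to 1000 UMIs, an Oat UMI was seen in 67.3% of Glul-high (62.3 to 71.9) and 19.8% of Glul-0 barcodes (18.7 to 21.0), and in 12.1% of barcodes below the hepatocyte gate, whose median depth was 4495 UMIs. A Gstm3 UMI was seen in 57.9% of Glul-high (52.8 to 62.9) and 13.6% of Glul-0 barcodes (12.6 to 14.5), against 2.28% below the gate. An Rgn UMI was seen in 97.1%, 74.6% and 14.1% of the same 3 classes. Without thinning the shares with an Oat UMI were 87.3%, 33.5% and 32.4%. All 3 markers were thus above both references in the Glul-high barcodes.

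The promoters of Glul, Oat and Gstm3, from 250 bases before the transcript start to 50 after it, are shown because these genes mark the class together. They are from RefSeq on build GRCm38.p6, 5′ to 3′ on the strand of the gene, in which the windows are chr1:153899679-153899978 (plus strand) for Glul, chr7:132576349-132576648 (minus strand) for Oat and chr3:107969125-107969424 (minus strand) for Gstm3, and the capitals mark CTTTGA or its reverse complement TCAAAG, the core letters bound by the TCF/LEF factors of the Wnt pathway:
Glul: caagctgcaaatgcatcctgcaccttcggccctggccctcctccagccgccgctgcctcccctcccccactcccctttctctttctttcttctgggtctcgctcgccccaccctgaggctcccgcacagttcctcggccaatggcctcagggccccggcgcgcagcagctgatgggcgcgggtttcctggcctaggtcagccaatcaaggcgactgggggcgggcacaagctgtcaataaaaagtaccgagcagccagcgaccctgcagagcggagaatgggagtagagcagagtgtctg
Oat: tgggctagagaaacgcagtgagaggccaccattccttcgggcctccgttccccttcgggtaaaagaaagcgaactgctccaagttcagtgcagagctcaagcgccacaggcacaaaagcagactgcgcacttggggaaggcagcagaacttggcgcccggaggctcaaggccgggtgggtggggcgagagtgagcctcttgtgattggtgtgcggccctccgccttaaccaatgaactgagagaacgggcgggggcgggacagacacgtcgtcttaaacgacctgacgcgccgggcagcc
Gstm3: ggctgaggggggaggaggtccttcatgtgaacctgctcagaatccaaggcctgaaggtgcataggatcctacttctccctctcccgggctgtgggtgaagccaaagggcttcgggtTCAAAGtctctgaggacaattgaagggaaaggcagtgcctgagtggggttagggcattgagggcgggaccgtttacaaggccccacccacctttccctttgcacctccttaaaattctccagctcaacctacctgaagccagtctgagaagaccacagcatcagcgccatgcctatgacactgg
The letters occurred once in the Gstm3 window and in neither of the other two. On either strand they were present in 16.2% of 27025 promoters of this length, in 14.0% of the 2449 that belonged to tested genes, in 8 of 23 promoters (34.8%) of the genes that were higher in Glul-high barcodes and in 7 of 31 (22.6%) of those that were lower, counts given as a description. A match is not a binding site, and its absence says only that these letters are not in the window.

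The comparison over mice used summed UMIs of 51 called Glul-high and 474 called Glul-0 barcodes in 3 mice. With edgeR's quasi-likelihood test and the mouse as a block, 71 of 3055 genes tested (2.32%) passed an adjusted p of 0.05, of which 32 (1.05%) were higher and 39 (1.28%) lower in Glul-high barcodes. At an unadjusted p under 0.05 there were 356, and without the mouse block 16 genes passed. The 71 genes kept their direction in each of the 3 mice, as did 32.8% of all tested genes, and kept it in the summed barcodes without a hashtag call, which the test did not use, as did 63.6% of all tested genes. The median log2 fold change of all tested genes was -0.03. The counts of called genes in the lists below can be read against the shares of 1.05% higher and 1.28% lower. The calls depended on single mice: 12 genes were called without the mouse of hashtag 1, 52 without that of hashtag 2 and 58 without that of hashtag 3. Of the 71 genes, 10 passed in all 3 of these fits. They were Oat, Gstm2, Gstm3, Rgn and Phyh, which starts the breakdown of phytanic acid in peroxisomes, among the higher genes, and Arg1, Serpina1e, Spp1, Clu and Tmsb4x, an actin-binding thymosin, among the lower ones. The other 61 failed without at least 1 mouse, though all 71 kept the sign of the log2 fold change.

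Oat had the largest log2 fold change among the called genes. Its level was 1537, 1381 and 3564 CPM in the Glul-high barcodes of hashtags 1, 2 and 3, and 130, 113 and 384 CPM in the Glul-0 barcodes. All 3 Glul-high values were above all 3 Glul-0 values. The log2 fold change was 3.41 (SE 0.16, edgeR adjusted p = 4.74e-08). In the barcodes without a call Oat stood at 2594 against 278 CPM. Without 1 mouse the log2 fold change was 3.24 to 3.56. Of 12 tested genes of glutamine, glutamate and ornithine metabolism, Oat was the only one called, and the median of that list was -0.05.

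Of the glutathione S-transferases of the mu class, 4 of 7 tested rose, against 1.05% of all tested genes. This set was not one of the planned lists. Gstm3 was at 1230, 885 and 745 CPM in the Glul-high barcodes of the 3 mice and at 252, 214 and 146 CPM in the Glul-0 barcodes, a log2 fold change of 2.19 (SE 0.17, edgeR adjusted p = 8.54e-06). Gstm2 was at 427, 611 and 424 CPM against 92.7, 82.6 and 114 CPM, a log2 fold change of 2.33 (SE 0.29, adjusted p = 0.0006). The groups did not overlap for either gene. Gstm6 and Gstm1 rose by 1.27 and 0.44 on the log2 scale but failed without single mice, Gstm6 without hashtag 1 or 3 and Gstm1 without any of the 3, and Gstm4, Gstm5 and Gstm7 did not pass (log2 fold changes 0.21, -0.80 and 0.36). Gsta3, of the alpha class, rose by 0.49. Of 17 tested genes of glutathione and antioxidant defence, these 5 were higher and Gsta1, another alpha class transferase, was lower (log2 fold change -1.44), and the list's median was 0.07. These 5 higher genes are also in the pericentral list below, so both lists count the same calls. The mu class genes share long stretches of sequence, so reads may be divided between them with error.

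Rgn was at 5791, 5027 and 6850 CPM in Glul-high and 2653, 2446 and 2533 CPM in Glul-0 barcodes. The groups did not overlap, and the log2 fold change was 1.17 (SE 0.12, edgeR adjusted p = 9.47e-05). The deep hepatocytes had 193 CPM of Rgn, below both low-depth classes.

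Cyp2e1, Gulo and Slco1b2 were higher as well, most in 1 mouse. Cyp2e1, the P450 that oxidises ethanol, was at 478, 1634 and 599 CPM in Glul-high barcodes of hashtags 1, 2 and 3 and at 180, 171 and 390 CPM in Glul-0 barcodes (log2 fold change 1.83, SE 0.40, edgeR adjusted p = 0.0372). Gulo, which completes the synthesis of vitamin C in mice, was at 120, 516 and 73.0 CPM against 28.4, 52.7 and 40.6 CPM (log2 fold change 2.43, SE 0.45). Slco1b2, an uptake transporter for bile acids and drugs, was at 222, 927 and 175 CPM against 81.3, 137 and 85.3 CPM (log2 fold change 1.92, SE 0.36). The groups did not overlap for these 3 genes, and hashtag 2 had the highest Glul-high value in each.

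The size of these changes rested on that mouse. Of 155 Cyp2e1 UMIs in its 19 members, 70 were in 2 barcodes, as were 25 of 49 Gulo UMIs and 49 of 88 Slco1b2 UMIs. Without it the log2 fold changes were 0.85 for Cyp2e1, 1.34 for Gulo, 1.13 for Slco1b2 and 1.53 for Cyp2c37, another P450, and none of the 4 passed the threshold. None of the 4 passed without hashtag 1 either, at values of 2.05, 2.52, 2.14 and 2.61. With mitochondrial UMIs under 10%, Cyp2e1 passed at 0.96, while Gulo (1.62) and Slco1b2 (1.04) did not pass. In the barcodes without a call Cyp2e1 stood at 591 against 267 CPM, Gulo at 114 against 49.5 CPM and Slco1b2 at 148 against 76.3 CPM.

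Over the pericentral list of 40 genes, 24 were tested, 13 were higher and none was lower, against 1.05% and 1.28% of all tested genes. The median log2 fold change of the list was 1.18. The 11 that did not pass had positive log2 fold changes too. The 13 were Oat, Cyp2e1, Cyp2c37, Gulo, Rgn, Gstm3, Gstm1, Gstm2, Gstm6, Gsta3, Slco1b2, Blvrb, the biliverdin reductase B, and Hpd, which degrades tyrosine. Blvrb was at 1281, 1370 and 1022 CPM against 505, 603 and 591 CPM (log2 fold change 1.08, SE 0.16, edgeR adjusted p = 0.00232). The list summed to between 39145 and 42396 CPM in the Glul-high barcodes of the 3 mice and between 21071 and 23923 CPM in the Glul-0 barcodes, which did not overlap. The list was drawn up with earlier results of these data known and is not independent evidence of its direction.

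Of genes known from the layer next to the vein, Lhpp did not pass the threshold and Slc1a2 was too low for the test. Lhpp, a histidine phosphatase, was tested and was at 102, 73.8 and 43.8 CPM against 11.3, 7.12 and 20.3 CPM, a log2 fold change of 2.51 (SE 0.63, edgeR adjusted p = 0.0583). Its gene (chr7:132610638-132706420, plus strand) neighbours Oat (chr7:132557478-132576398, minus strand) in the GENCODE annotation of GRCm38. Slc1a2, a glutamate transporter, was at 0, 348 and 29.2 CPM in the Glul-high barcodes of the 3 mice and at 0 in the Glul-0 barcodes of all 3. Over all barcodes Slc1a2 had 65 UMIs in 34 of the 385 Glul-high barcodes (50.4 CPM, 38.9 to 64.3) and 0.792 CPM in Glul-0 barcodes (0.409 to 1.38). In the Glul-high barcodes of hashtag 2, 20 of its 33 UMIs were in 2 barcodes.

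Of 15 Wnt target genes only Ccnd1, the cyclin D1 gene, was tested, and it did not pass (log2 fold change -1.03, edgeR adjusted p = 0.351). Summed over barcodes, the Wnt-responsive factor Sp5 was at 25.6 CPM in Glul-high (17.6 to 36.0) and 0.726 CPM in Glul-0 barcodes (0.362 to 1.30). Axin2 and Nkd1, inhibitors that the pathway induces, were both at 11.6 CPM (6.51 to 19.2), against 1.25 CPM (0.755 to 1.96) and 0.396 CPM (0.145 to 0.862). Nkd1 was also at 18.9 CPM in the barcodes below the hepatocyte gate. Tbx3, a T-box factor, was at 23.3 CPM (15.7 to 33.2) against 5.74 CPM (4.60 to 7.08). The intervals of these 4 genes did not overlap between the classes. Lgr5, the receptor for R-spondins, was at 0.776 CPM (0.0196 to 4.32) against 0.198 CPM, a difference not detectable at this depth, and 7 of the 11 listed genes with a ratio were above 1. The 15 genes summed to 166 CPM in Glul-high and 196 CPM in Glul-0 barcodes, with Lef1 and Troap at 0 in Glul-high barcodes. The summed level was thus not higher, but a sum is set mostly by the most abundant genes. Cdh1 is in this list and in the periportal list.

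**Figure D3:**
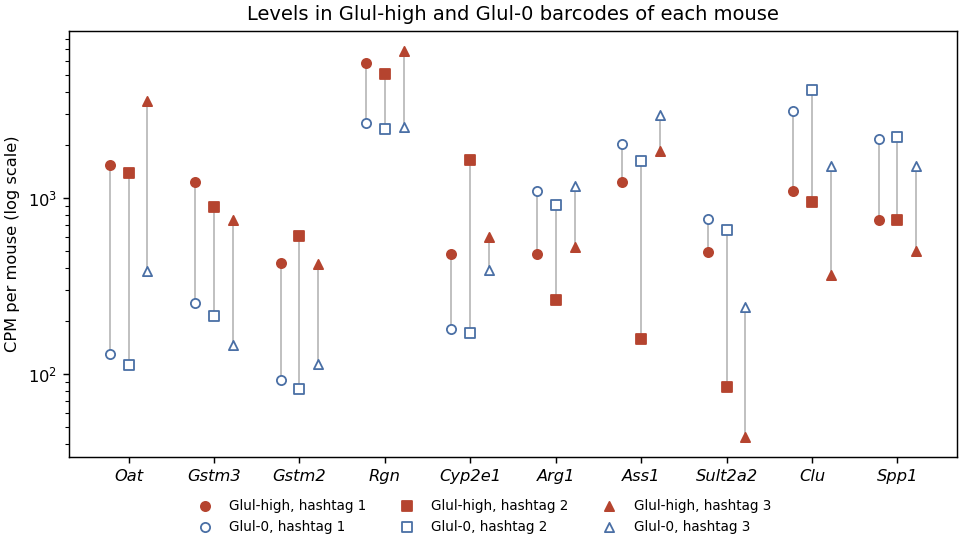
CPM of 10 genes (vertical axis, log scale) in the summed Glul-high (filled) and Glul-0 (open) barcodes of each mouse, with a grey line joining the values of 1 mouse. Oat, Gstm3, Gstm2, Rgn and Cyp2e1 are higher and Arg1, Ass1, Sult2a2, Clu and Spp1 lower in Glul-high barcodes in all 3 mice.

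Some genes of the portal side of the lobule were lower. Of the urea cycle list 8 genes were tested, 3 were lower and none was higher, against 1.28% and 1.05% of all tested genes. The list had a median of -0.47 and 3 positive values. Arg1 was at 478, 263 and 526 CPM in Glul-high and 1091, 916 and 1163 CPM in Glul-0 barcodes, which did not overlap (log2 fold change -1.40, SE 0.16, edgeR adjusted p = 0.000409). Ass1, the argininosuccinate synthase, was at 1230, 158 and 1840 CPM against 2014, 1616 and 2950 CPM (log2 fold change -1.37, SE 0.31, adjusted p = 0.0396). Otc, the ornithine carbamoyltransferase, was at 922, 306 and 745 CPM against 1031, 886 and 1214 CPM (log2 fold change -0.80, SE 0.19). For Ass1 and Otc the groups overlapped, though each mouse was lower in its own Glul-high barcodes. Ass1 did not pass without hashtag 1 (-1.72), and Otc passed in none of the fits without 1 mouse. Cps1, the first enzyme of the cycle, was at 28.7 CPM against 98.4 CPM over all barcodes, and its log2 fold change of -1.35 did not pass (adjusted p = 0.266).

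Of the periportal list of 30 genes, 14 were tested, with a median of -0.74 and 3 positive values. Of these 14, 3 were lower and none was higher, against 1.28% and 1.05% of all tested genes. The 3 were Uox, the urate oxidase, at -0.63, and the alpha-1 antitrypsin genes Serpina1c and Serpina1e at -0.84 and -1.52. The antitrypsin genes are near-identical copies and so uncertain one by one. Serpina1a, Serpina1b and Serpina1d of the same family were also called lower, at -0.74, -0.82 and -0.74, so these calls are not separate results. Uox passed in none of the fits without 1 mouse, and Serpina1c did not pass without hashtag 1. Serpina1e was at 1247, 822 and 1753 CPM against 4450, 2877 and 3209 CPM. Hal, which degrades histidine, and Gls2, the liver glutaminase, did not pass at -2.42 and -1.53 (edgeR adjusted p = 0.0587 and 0.091). After thinning, a Gls2 UMI was seen in 1.56% of Glul-high barcodes (0.574 to 3.36) and 14.3% of Glul-0 barcodes, against 0.896% below the hepatocyte gate. Cyp2f2, a P450 of periportal cells, was seen in 0.260% of Glul-high (0.00658 to 1.44), 4.23% of Glul-0 barcodes and 0.326% below the gate. The Cyp2f2 interval of Glul-high barcodes covered the share of the barcodes that should lack it.

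The midlobular list had 3 tested genes, of which Hamp and Mup3 were lower, against 1.28% of all tested genes. Hamp, which encodes the iron hormone hepcidin, was at 461, 148 and 672 CPM against 889, 1352 and 948 CPM, with no overlap (log2 fold change -1.45, SE 0.32, edgeR adjusted p = 0.0373), and without hashtag 2 its value was -0.80 and did not pass. Mup3, a major urinary protein, was at 410, 253 and 526 CPM against 732, 413 and 1045 CPM (log2 fold change -0.89). The 2 groups overlapped for Mup3, which did not pass without hashtag 1 or 3. Hamp did not pass without hashtag 1 either. Both genes have close copies, between which reads may be divided.

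**Figure D4:**
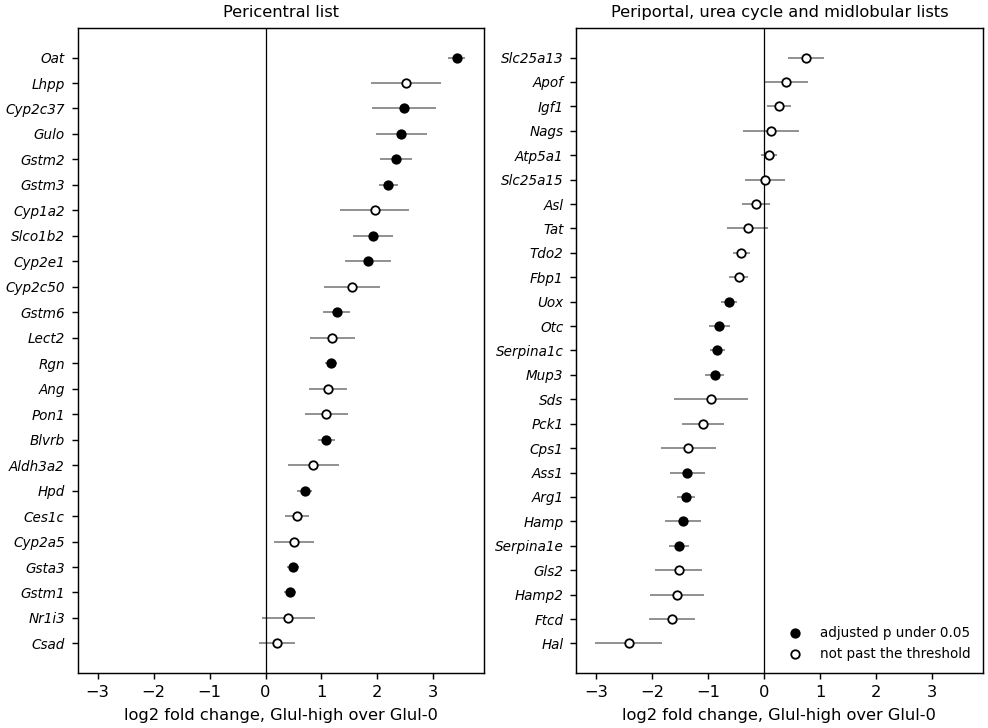
log2 fold change (horizontal axis) of the tested genes of the pericentral list (left) and of the periportal, urea cycle and midlobular lists (right) in Glul-high over Glul-0 barcodes, with bars of 1 SE and filled points for an edgeR adjusted p under 0.05. All 24 pericentral values are positive, and the filled points on the right are all negative.

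Within the 385 barcodes these levels moved in steps with the share of Glul. The members were split at 0.2%, 0.4% and 0.8% of UMIs into 77, 114, 145 and 49 barcodes, of 3544, 3231, 2565 and 2472 median UMIs. Oat was at 1293, 2352, 2903 and 4162 CPM in that order, Gstm3 at 867, 963, 1154 and 1454 CPM and Rgn at 5538, 6183, 7116 and 8971 CPM. Ass1 was at 1293, 710, 487 and 241 CPM and Arg1 at 410, 319, 186 and 96.5 CPM. Clu did not follow this order, at 781, 1282, 793 and 503 CPM. Cyp2e1 rose to 860 CPM in the third bin and stood at 551 CPM in the fourth. Alb, one of the gate genes, was at 6247, 8622, 6723 and 5147 CPM in the bins, against 14667 CPM in Glul-0 barcodes. The barcodes with Glul below the limits lay between Glul-0 and the lowest bin for Oat (568 CPM), Rgn (3982 CPM), Arg1 (722 CPM) and Ass1 (1562 CPM). The bins pool barcodes of all mice, and cells are not replicates, so no test was made.

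**Figure D5:**
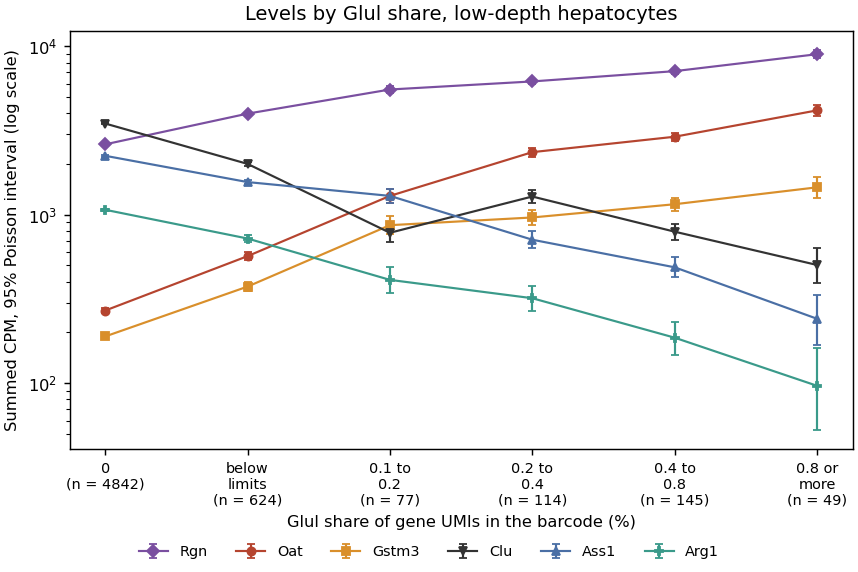
Summed CPM (vertical axis, log scale) of 6 genes by the share of Glul in the barcode (horizontal axis, %), with Poisson 95% intervals. Rgn, Oat and Gstm3 are higher and Ass1 and Arg1 lower at each step of Glul, while Clu is at 1282 CPM in the bin from 0.2% to 0.4% and at 781 CPM in the bin before it.

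Glul and Oat marked overlapping but unequal sets of barcodes. At the same limits, 3 UMIs and 0.1%, 629 low-depth hepatocytes were Oat-high, of which 196 were Glul-high. These were 50.9% of the Glul-high and 31.2% of the Oat-high barcodes, and 49 Glul-high barcodes held no Oat UMI. The 335 Oat-high barcodes without a Glul UMI had a median of 2142 UMIs. They had 4912 CPM of Rgn and 900 CPM of Cyp2e1, against 6660 and 662 CPM in Glul-high barcodes, but 259 CPM of Gstm3 against 1060 CPM, and 91.3 CPM of Lhpp against 107 CPM. Their Arg1 (1047 CPM) and Ass1 (3116 CPM) were above the 271 and 720 CPM of Glul-high barcodes. These are values of summed barcodes that were chosen by Oat, without a test.

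Other hepatocyte enzymes and their carriers were among the higher genes. Acot1, an acyl-CoA thioesterase with close copies, was at 171, 200 and 292 CPM against 53.0, 52.7 and 83.2 CPM (log2 fold change 1.79, SE 0.31, edgeR adjusted p = 0.00994). Csrp2, a LIM domain protein, was at 205, 295 and 365 CPM against 77.5, 72.7 and 108 CPM (1.73, SE 0.30). The gene 1810058I24Rik was at 957, 632 and 818 CPM against 297, 299 and 353 CPM (1.29, SE 0.17). None of these 3 overlapped between the groups, and none passed without the mouse of hashtag 1, at 1.87, 1.90 and 1.16. Fabp1, the liver fatty acid binding protein, rose by 0.44 on the log2 scale, from 20776 to 23660 CPM in Glul-0 barcodes to 27065 to 34539 CPM in Glul-high ones. Aldh1a1, which makes retinoic acid from retinal, rose by 0.82, and Akr1c6, a steroid dehydrogenase with a near copy in Akr1c20, by 0.77.

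Clu, Spp1 and Sult2a1 were lower in Glul-high barcodes. Clu, the chaperone clusterin, was at 1093, 949 and 365 CPM in Glul-high and 3113, 4118 and 1516 CPM in Glul-0 barcodes, with no overlap (log2 fold change -1.91, SE 0.14, edgeR adjusted p = 7.3e-06). Clu (chr14:65968483-65981547, plus strand) lies beside Gulo (chr14:65986786-66009207, minus strand), which moved the other way. Spp1, the osteopontin gene, was at 752, 748 and 497 CPM against 2167, 2214 and 1516 CPM, also with no overlap (-1.59, SE 0.14, adjusted p = 2.78e-05). Of 21 tested secreted hepatocyte proteins, 2 were lower and none was higher, with a median of -0.38. They were Trf, which encodes transferrin (-1.10), and Serpina1a (-0.74), one of the alpha-1 antitrypsin copies named above. Sult2a1, a sulphotransferase of bile acids and steroids with close copies, was at 120, 0 and 14.6 CPM against 212, 393 and 185 CPM (-2.84, SE 0.63, adjusted p = 0.0373). Without the mouse of hashtag 1 its value was -5.46, and without that of hashtag 2 it was -1.76 and did not pass.

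Clu and Spp1 moved with the mitochondrial share too. In Glul-high barcodes Clu was at 521 CPM where mitochondrial UMIs were under 1% and at 3134 CPM where they were 1% or more, and in Glul-0 barcodes it was at 1330 and 11520 CPM. Spp1 was at 523 and 3653 CPM in Glul-high and at 1236 and 8112 CPM in Glul-0 barcodes. Both genes were lower in Glul-high barcodes on either side of 1%. For Arg1 the same 4 values were 273 and 260 CPM in Glul-high and 1210 and 545 CPM in Glul-0 barcodes, and for Oat 2539 and 2219 CPM and 303 and 147 CPM. In the fit of barcodes with mitochondrial UMIs of at least 1%, which had 2 mice, 1 gene passed. It was Oat, at a log2 fold change of 3.88. At 1% or more the classes still differed, with median mitochondrial shares of 3.32% in Glul-high and 4.11% in Glul-0 barcodes. The part of RNA quality in the calls, those of Clu and Spp1 included, was not tested.

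Early response and cytoskeletal genes were among the largest falls. Junb, a subunit of the AP-1 factor, was at 34.2, 73.8 and 73.0 CPM against 289, 272 and 189 CPM (log2 fold change -2.0, SE 0.37, edgeR adjusted p = 0.0146). Zfp36, which speeds the decay of messenger RNAs, was at 0, 42.2 and 14.6 CPM against 159, 144 and 124 CPM (-2.67, SE 0.57). These 2 were the genes called of 12 tested from a list of dissociation stress, whose median was -1.17. Over all barcodes that list summed to 770 CPM in Glul-high and 905 CPM in Glul-0 barcodes. Vim, the intermediate filament vimentin, was at 34.2, 63.2 and 58.4 CPM against 142, 265 and 205 CPM (-1.97, SE 0.36). Tmsb10, the tetraspanin Cd9 and Ly6e fell by 2.40, 2.23 and 1.97 on the log2 scale. Without the mouse of hashtag 1, Junb, Zfp36, Vim, Tmsb10, Cd9 and Ly6e did not pass, at values of -1.63, -2.12, -1.92, -1.77, -1.92 and -1.76. Without hashtag 2, Zfp36 was at -4.19 and Ly6e at -3.32 and both passed, while Junb, Vim, Tmsb10 and Cd9 did not.

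The calls of Cyba and H19 rest on very few UMIs. Cyba, a subunit of the NADPH oxidase of phagocytes, had 1 UMI in the called Glul-high and 116 in the called Glul-0 barcodes, a ratio of 14.9 in favour of Glul-0 (95% interval 2.63 to 595), and its log2 fold change was -3.82 (SE 0.91, edgeR adjusted p = 0.0446). H19, an imprinted RNA of fetal liver, had 2 and 179 UMIs, a ratio of 11.5 (3.14 to 95.9). Without 1 mouse Cyba was at -7.46 to -3.12 and did not pass in any of the 3 fits, and H19 was at -3.98 to -3.27 and passed only without hashtag 3. In the barcodes without a call Cyba was at 5.69 against 6.54 CPM and H19 at 76.9 against 109 CPM, which are smaller differences than in the fit.

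Marker genes of other cell types were low in both classes. The 16 endothelial genes, of which the gates capped Clec4g, Ptprb and Kdr, summed to 52.8 CPM in Glul-high and 63.0 CPM in Glul-0 barcodes, against 8095 CPM below the hepatocyte gate, with Wnt9b and Kit at 0 in Glul-high barcodes. The 12 macrophage genes summed to 35.7 and 44.9 CPM against 1127 CPM, with Marco and Adgre1 at 0. The 8 dendritic cell genes, some of which the gates capped, summed to 125 and 157 CPM against 31160 CPM, with Flt3, Xcr1 and Siglech at 0. The 9 lymphocyte genes summed to 1.55 and 15.6 CPM, with Cd3e, Cd3g, Trac, Nkg7, Gzma, Cd79b and Ms4a1 at 0, and the 6 stellate cell genes to 2.33 and 11.7 CPM, with Col1a1, Col3a1, Lrat and Rgs5 at 0. Of 6 cholangiocyte genes 3 were at 0 (Epcam, Krt7 and Krt19), and Spp1, which belongs to that list, made up 990 of its 1152 CPM.

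In the called barcodes of the fit the lymphocyte, macrophage and dendritic lists did not overlap between the classes, while the endothelial (17.1 to 190 against 54.1 to 410 CPM) and stellate lists (0 to 17.1 against 1.89 to 17.1 CPM) did. The lymphocyte list was at 0 to 14.6 CPM in the 3 Glul-high sums and 96.9 to 157 CPM in the Glul-0 sums, the macrophage list at 34.2 to 190 against 191 to 369 CPM and the dendritic list at 68.3 to 148 against 194 to 284 CPM. Vim, Tmsb10, Ly6e and Cyba were also lower in the Glul-high sums, and a link with these lists was not tested. With at most 1 UMI of other cell types per barcode 35 genes were called, and Vim passed at -2.12 while Tmsb10, Ly6e, Junb, Zfp36, Cd9 and Sult2a1 did not, at -1.35, -1.76, -0.96, -2.66, -2.09 and -2.73. Among the higher genes, Cyp2e1, Gulo and Cyp2c37 did not pass there either, at 1.87, 2.49 and 2.47. The neutrophil list was at 0 to 1125 CPM in Glul-high and 2.03 to 963 CPM in Glul-0 sums. Its 65 UMIs of S100a8 (24) and S100a9 (41) in Glul-high barcodes of hashtag 3 were all in 1 barcode. The erythroid list stood at 287 CPM over all Glul-high barcodes, where 1 barcode held 218 of 222 Hbb-bs UMIs.

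An mVenus UMI was seen in few barcodes of either low-depth class, 9.09% of Glul-high and 6.69% of Glul-0 barcodes. The mVenus row had 63 UMIs in 35 of the 385 (9.09%, exact binomial 95% interval 6.41 to 12.4), or 48.9 CPM (37.6 to 62.5), and 30.4 CPM in Glul-0 barcodes (27.7 to 33.3), against 13.5 CPM in barcodes below the hepatocyte gate and 66.1 CPM in deep hepatocytes. After thinning to 1000 UMIs an mVenus UMI was seen in 4.42% of Glul-high (2.59 to 6.98), 3.33% of Glul-0 (2.84 to 3.87), 1.22% of barcodes below the gate and 4.55% of deep hepatocytes. The thinned intervals of Glul-high and Glul-0 barcodes overlapped. In the called barcodes of hashtags 1, 2 and 3 mVenus was at 0, 0 and 29.2 CPM in Glul-high (0, 0 and 2 UMIs) and at 9.45, 18.5 and 44.6 CPM in Glul-0 barcodes, so the order over all barcodes was not seen in any of the 3 mice.

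The Nras row, where construct and mouse transcripts are counted together, was at 182 CPM in Glul-high (160 to 207) and 254 CPM in Glul-0 barcodes (246 to 262), against 135 CPM below the gate and 830 CPM in deep hepatocytes. In Glul-high barcodes of hashtags 1, 2 and 3 it was at 34.1, 979 and 190 CPM, and 1 barcode held 92 of the 93 UMIs of hashtag 2. Glul-0 barcodes of the same mice were at 157, 172 and 349 CPM. Without its highest barcode the summed Glul-high level was 111 CPM. Of 13 genes of a senescence panel 4 were tested and none passed, with a median of -1.64. Cdkn1a, the p21 gene, was at 18.6 CPM in Glul-high and 39.9 CPM in Glul-0 barcodes (log2 fold change -0.43, edgeR adjusted p = 0.87).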

How the data were processed

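The authors deposited raw UMI counts per gene and barcode (3′ v3 droplet libraries, 2 lanes loaded, filtered barcodes, aligned to mm10 with Cell Ranger, which the submitters' processing notes give as version 2.1.1 and the file header as 3.0.2) and raw hashtag counts, made with CITE-seq-Count without mismatches. All barcodes carry 1 suffix although 2 lanes were loaded, so how a barcode present in both lanes was handled cannot be told from them. Gates, members and gene lists were chosen with earlier results of these data known, and Glul, the gate genes and mitochondrial genes were described without a test.

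Hashtags were called with HTODemux (Seurat 5.3.0, quantile 0.99) over all barcodes. This gave 5482 single calls, 271 doublets and 7386 barcodes without a call. No other doublet caller was run, and doublet calls stayed among the members but out of the fit. Counts were summed per mouse and class, for mice with at least 10 members (median depth 3744, 4586 and 3367 UMIs in members and 3047, 3776 and 2188 in Glul-0 barcodes for hashtags 1, 2 and 3), filtered with filterByExpr, scaled by TMM without Glul, Nras and mVenus, and tested with edgeR 4.0.16 (glmQLFit, glmQLFTest) with the mouse as a block and Benjamini-Hochberg adjustment over all genes tested. Both classes of a mouse come from the same animal, which is where the pairing comes from. The genes given in detail were those of the lists and the 10 largest rises and 10 largest falls among called genes of the same direction in every mouse and at least 50 CPM in a class. Further genes were named after their values were seen (Phyh, Tmsb4x, Malat1, Fabp1, Aldh1a1, Akr1c6, Akr1c20, Gstm5, Gstm7, Serpina1b, Serpina1d). Alternatives changed the scaling, the test (DESeq2 1.42.0), the filter, the block, the mice, the gates and the hashtag rule. Shares of barcodes with a UMI were compared after thinning each barcode to 1000 UMIs. Intervals are exact 95% Poisson or binomial intervals.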

Additional observations from a re-analysis of the deposited data

Results flagged for a closer look

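Of the Glul-high barcodes, 329 had no hashtag call and so entered no comparison over mice. They held the pattern of the called ones in summed CPM: Oat was at 2594 CPM against 278 CPM in Glul-0 barcodes without a call, Gstm3 at 1094 against 186 CPM and Arg1 at 247 against 1076 CPM.

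Above the depth gate, 17 of 2154 deep hepatocytes were Glul-high (0.789%, exact binomial 95% interval 0.460 to 1.26). Their median was 11390 UMIs, and 1 of them had 20000 UMIs or more. In sum they held 980 CPM of Oat, 553 CPM of Gstm3 and 226 CPM of Slc1a2, against 31.6, 22.1 and 3.77 CPM in all deep hepatocytes.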

How the results depend on the processing

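Against 71 called genes, 68 were called with DESeq2's size factors in edgeR, 27 with DESeq2, 187 without a filter on low counts (28 higher, 159 lower), 16 with no replicate block (all 16 among the 71), 133 with mitochondrial UMIs under 10%, 35 with at most 1 UMI of other cell types and 1 with mitochondrial UMIs of at least 1%, an alternative chosen after seeing the data. Leaving out 1 mouse gave 12 to 58. In the fit without the filter more genes entered the test, and of its 187 calls 57 were among the 71. The other alternatives gave 58 to 81. Among them, the fit of barcodes with at least 3000 UMIs gave 59 and had 2 mice, because hashtag 1 had 9 members there. No sign changed among the 18 to 21 of 21 followed genes that each fit could test, and the block changed the call of 13 of them. A fixed hashtag rule needed at least 10 hashtag UMIs, with at least 80% of them from 1 hashtag. This rule and the limit of mitochondrial UMIs under 1% each left 1 mouse with at least 10 members and could not be fitted. Under the fixed rule 78 of 973 low-depth hepatocytes were Glul-high for hashtag 1, 4 of 52 for hashtag 2 and 7 of 84 for hashtag 3. The assignment of barcodes to mice, and so each value by mouse, thus depended on the rule.

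With at least 3000 UMIs (and under 10000) the Glul-high share for hashtag 3 was 14.7% (11 of 75, 7.56 to 24.7). With at least 5 Glul UMIs and 0.2% it was 4.83% (10 of 207, 2.34 to 8.70). At 3000 UMIs or more (and under 10000) mVenus stood at 29.9 CPM in Glul-high and 23.8 CPM in Glul-0 barcodes, and Nras at 303 CPM in Glul-0 barcodes. Among barcodes with at least 3000 UMIs, thinned to 3000, an Oat UMI was seen in 88.7% of Glul-high and 28.4% of Glul-0 barcodes. Over all barcodes without thinning, a different set, it was seen in 87.3% and 33.5%. The cause of these differences was not tested. The limits of the comparison were 3 mice, 51 called members and hashtag counts near the background.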
